A study of Homo sapiens with 2 samples.

Results

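The UGT2B genes encode UDP-glucuronosyltransferases, and 7 of them were examined in C4-2B prostate cancer cells as the rows of the deposited gene table named UGT2B4, UGT2B7, UGT2B10, UGT2B11, UGT2B15, UGT2B17 and UGT2B28, which are 7 of the 60671 genes listed. C4-2B is a castration-resistant human line derived from LNCaP cells, and it was given vehicle or (R)-9b, an inhibitor of the tyrosine kinase ACK1, with 1 poly-A RNA library per condition. The labels give 1 µM (R)-9b overnight and serum-supplemented medium for the cells, whereas the sequencing methods of the study state no dose. The labels also call the line a breast cancer, so its markers were checked. All 8 prostate luminal markers were detected, with summed levels in CPM (counts scaled to a common library size) of 5000 for vehicle and 9890 for (R)-9b. The 7 breast markers summed to 1.88 and 2.04 CPM, respectively, and SCGB2A2 and ANKRD30A were at 0 in both, whereas TFF1 (41 and 73 counts), GATA3 (38 and 30), SCGB1D2 (34 and 8), PGR (10 and 2) and ESR1 (2 and 2) were detected. The cells are therefore called prostate cancer cells here.

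UGT2B enzymes sit in the membrane of the endoplasmic reticulum and transfer glucuronic acid from UDP-glucuronic acid to small lipophilic molecules, which makes them soluble and ready for export. In the prostate, UGT2B15 and UGT2B17 conjugate dihydrotestosterone and its reduced metabolites and so inactivate them, and UGT2B28 also accepts steroids. UGT2B7 conjugates many steroids and drugs, UGT2B4 is known for bile acids, UGT2B10 acts on the nitrogen of amines such as nicotine, and UGT2B11 has few known substrates. Androgens are known to lower several UGT2B transcripts in LNCaP-type cells, and the question here was whether these transcripts moved with (R)-9b.

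In the GENCODE 29 annotation of GRCh38 the 7 genes lie within 989 kb of chromosome 4, among 38 other annotated genes. UGT2B17 (ENSG00000197888, 68537184 to 68568527) and UGT2B15 (ENSG00000196620, 68646630 to 68670628) are neighbours on the minus strand. UGT2B10 (ENSG00000109181, 68815993 to 68831196) and UGT2B7 (ENSG00000171234, 69051363 to 69112987) follow on the plus strand. UGT2B11 (ENSG00000213759, 69199951 to 69214731, minus strand), UGT2B28 (ENSG00000135226, 69280499 to 69295050, plus strand) and UGT2B4 (ENSG00000156096, 69480165 to 69526014, minus strand) come last. The longest coding transcript of each gene has 6 exons and 1584 to 1590 coding bases.

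The members are close copies, so the letters in which they differ decide which gene a read is given to. Over the coding bases UGT2B11 and UGT2B28 were 97.0% identical, with 47 substitutions, and UGT2B15 and UGT2B17 were 96.5% identical, with 55. These are the only 2 pairs in which each gene was the nearest to the other. In UGT2B15 and UGT2B17 the longest identical run was 199 bases, longer than a read of 150 bases. For each pair, the 60 coding bases of a single exon with the most differences are given 5′ to 3′, with the differing bases in capitals. In both pairs this stretch is in exon 1, and it lies at chr4:68670318-68670377 for UGT2B15, chr4:68568184-68568243 for UGT2B17, chr4:69214630-69214689 for UGT2B11 and chr4:69280534-69280593 for UGT2B28 (GRCh38, each on the strand of its gene).
UGT2B15: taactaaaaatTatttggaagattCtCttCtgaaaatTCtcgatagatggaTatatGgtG
UGT2B17: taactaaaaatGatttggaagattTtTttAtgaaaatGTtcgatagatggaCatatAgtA
UGT2B11: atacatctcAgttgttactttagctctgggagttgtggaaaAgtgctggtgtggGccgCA
UGT2B28: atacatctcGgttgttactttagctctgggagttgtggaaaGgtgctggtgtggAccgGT
The first pair differs at 9 of these 60 bases and the second pair at 5.

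How much of each transcript can be told apart at this read length was counted over all 150-base windows. For UGT2B4, UGT2B7, UGT2B10 and UGT2B28, 100% of the windows occurred in no transcript of another gene in GENCODE 29. For UGT2B15 and UGT2B17 it was 95.1% each, and the shared windows were shared between these 2 genes. For UGT2B11 it was 92.9%, with windows shared with the pseudogene UGT2B25P and with AC111000.4, an antisense RNA that overlaps 418 exon bases of UGT2B11. AC111000.4 had 0 counts in both libraries, but the strand setting of the counting is not given in the sources used here, so reads of the 2 cannot be told apart. Gene counts took uniquely aligned reads. By sequence, most of each member could be counted, and a small part of UGT2B15, UGT2B17 and UGT2B11 could not. For UGT2B11 the part left out may be larger. If strand was ignored, reads over the 418 shared bases could be ambiguous and left out.

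Promoter sequence of 4 members, UGT2B7, UGT2B10, UGT2B11 and UGT2B15, was matched in the RefSeq promoter table (GRCh38.p14). The 250 bases before each RefSeq start are printed because FOXA1, a pioneer factor of the prostate and a known activator of UGT2B genes, binds forkhead motifs. Capitals mark the forkhead heptamers TGTTTAC and TGTTTAT on either strand. The regions are chr4:68670653-68670902 for UGT2B15 and chr4:69214749-69214998 for UGT2B11, on the minus strand, and chr4:68815744-68815993 for UGT2B10 and chr4:69096224-69096473 for UGT2B7, on the plus strand.
UGT2B15: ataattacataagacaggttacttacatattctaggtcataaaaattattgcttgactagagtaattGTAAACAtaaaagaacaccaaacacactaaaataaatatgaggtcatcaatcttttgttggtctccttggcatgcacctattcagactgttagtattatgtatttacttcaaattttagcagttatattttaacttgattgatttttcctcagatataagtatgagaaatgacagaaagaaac
UGT2B11: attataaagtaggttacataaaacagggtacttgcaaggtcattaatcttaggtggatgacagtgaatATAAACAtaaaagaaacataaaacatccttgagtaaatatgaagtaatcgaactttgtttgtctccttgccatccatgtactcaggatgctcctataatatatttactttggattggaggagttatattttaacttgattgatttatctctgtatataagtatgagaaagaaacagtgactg
UGT2B10: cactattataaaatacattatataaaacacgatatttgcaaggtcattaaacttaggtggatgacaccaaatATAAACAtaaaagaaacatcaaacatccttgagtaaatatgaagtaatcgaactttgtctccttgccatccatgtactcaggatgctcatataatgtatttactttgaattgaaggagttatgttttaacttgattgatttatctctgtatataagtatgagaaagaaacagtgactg
UGT2B7: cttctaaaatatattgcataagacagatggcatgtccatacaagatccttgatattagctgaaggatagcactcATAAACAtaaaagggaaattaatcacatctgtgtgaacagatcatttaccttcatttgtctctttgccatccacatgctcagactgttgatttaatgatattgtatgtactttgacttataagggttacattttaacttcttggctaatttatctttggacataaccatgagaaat
Each of these 4 promoters held 1 match, between -183 and -176 from the start, whereas 6.56% of all 35116 promoters of this length held either heptamer. The match lies in a like place in these related genes, so the 4 are not separate hits to set against that share. UGT2B15 carried TGTTTAC, found in 2.98% of promoters, and the other 3 carried TGTTTAT, found in 3.77%. None of the 4 held the AP-1 motif TGANTCA (6.57% of promoters) or the HNF1 hexamer GTTAAT (6.23%). The UGT2B10 and UGT2B11 promoters were 90.2% identical to each other, and the other pairs 58.4% to 70.9%. The motifs were searched with the sequences and earlier results in view, and a match describes letters, not binding.

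The vehicle library held 65207444 counts and the (R)-9b library 57653965, and mitochondrially encoded genes took 1.49% and 9.54% of them. Counts were scaled by TMM, against which scaling by totals lowers every log2 ratio by 0.060. Ratios are (R)-9b over vehicle, with exact (Clopper-Pearson) 95% intervals that cover counting error only, and a ratio was computed for each of 23446 genes whose 2 counts added up to 10 or more. With 1 library per condition the spread between cultures was not measured, no test of the treatment was possible, and "higher" and "lower" describe these 2 libraries. Among genes with 1 to 20 counts, 72.2% (vehicle) and 70.3% ((R)-9b) had an even count, so the mates of a pair may both be counted and intervals are also given for halved counts where this matters.

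All 7 UGT2B mRNAs were scarce in C4-2B cells, and their total was close in the 2 libraries. Together they had 489 counts with vehicle against 461 after (R)-9b, or 7.34 and 8.16 CPM. The log2 ratio of the sum was 0.15 (95% interval -0.03 to 0.34), a ratio of 1.11 with an interval of 0.977 to 1.27. This interval, of counting error alone, includes 1. With upper quartile scaling the log2 ratio was 0.19, with an interval just above 0 (0.0025 to 0.38). A change of the summed mRNA with treatment could not be tested with 1 library per condition. The sum depends on UGT2B15: the other 6 members had 238 and 287 counts, a log2 ratio of 0.51 (0.25 to 0.76), and leaving out UGT2B17 instead gave -0.02 (-0.25 to 0.22). Adding the 5 named UGT2B pseudogenes, which had 12 and 9 counts, left it at 0.15 (-0.04 to 0.33). Fewer cells carrying an mRNA and less of it per cell cannot be told apart in these bulk libraries.

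Single members differed in both directions. Of the 7, 5 reached these 10 counts and were compared. The whole interval was above a ratio of 1 for 2 (UGT2B17 and UGT2B28) and below 1 for 2 (UGT2B15 and UGT2B11), and it included 1 for UGT2B10. Over all genes compared, 29.8% were above and 31.1% below, or 60.9% in either direction, beside 4 of 5 here. With the whole interval beyond 2-fold, 0 of the 5 were called, beside 4.2% of all genes higher and 3.44% lower (7.64% in either direction). By point ratio 2 were beyond 2-fold, UGT2B28 above and UGT2B11 below, beside 11.5% and 9.53% of all genes (21.0% in either direction). The median log2 ratio of the 5 was 0.46, against -0.0049 over all genes compared. With halved counts the interval stayed above 1 for UGT2B17 and UGT2B28, and it included 1 for UGT2B15 and UGT2B11. The 2 lower calls thus rest on unhalved counts. A common fall or rise of the cluster was not seen in the point ratios of gene counts.

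UGT2B15 and UGT2B17, the androgen-conjugating pair, were the most abundant members, and their gene counts differed in opposite directions. UGT2B15 had 251 counts with vehicle against 174 after (R)-9b, a log2 ratio of -0.29 (95% interval -0.58 to -0.0061). The upper end lies close to 0, and the interval includes 0 with halved counts (-0.70 to 0.12) and with upper quartile scaling (-0.54 to 0.03). UGT2B17 had 157 counts with vehicle against 183 after (R)-9b, a log2 ratio of 0.46 (95% interval 0.14 to 0.78), and with halved counts the interval was 0.0079 to 0.91. With an assumed coefficient of variation of 0.1 added for spread between cultures, the intervals of both genes included 0 (-0.78 to 0.20 for UGT2B15 and -0.05 to 0.97 for UGT2B17). Estimated transcript counts placed UGT2B15 at 0.099 (-0.45 to 0.65) and UGT2B17 at 0.69 (0.16 to 1.23). Added together, which leaves out how reads were split between them, the pair had 408 and 357 counts and a log2 ratio of 0.05 (-0.16 to 0.25), against 0.40 (0.03 to 0.78) from transcript counts without the alternate locus of UGT2B15 and 0.23 (-0.12 to 0.57) with it.

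The balance within this pair does not depend on library scaling. There were 1.60 UGT2B15 counts per UGT2B17 count in vehicle and 0.951 in (R)-9b, an odds ratio of 0.595 (exact 95% interval 0.441 to 0.801). With halved counts the interval was 0.389 to 0.916. The estimated transcript counts of the authors, from a method that shares out reads matching several transcripts, gave 1.15 and 0.767 UGT2B15 counts per UGT2B17 count. Their odds ratio of 0.665 had an interval of 0.387 to 1.14, which includes 1. This table also lists a UGT2B15 transcript at an alternate locus, and with it the quotients were 1.69 and 0.955, with an odds ratio of 0.566 (0.342 to 0.931). The odds ratio within pairs was computed after the values had been seen.

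UGT2B28 and UGT2B11, the other close pair, stood further apart but on fewer counts. UGT2B28 had 40 counts with vehicle against 73 after (R)-9b, a log2 ratio of 1.11 (95% interval 0.53 to 1.70), or 2.15-fold higher. UGT2B11 had 25 counts with vehicle against 7 after (R)-9b, a log2 ratio of -1.60 (95% interval -3.05 to -0.35), or 3.03-fold lower. With halved counts the interval of UGT2B28 stayed above 0 (0.28 to 1.97), whereas that of UGT2B11 included 0 (-3.84 to 0.18). There were 1.60 UGT2B28 counts per UGT2B11 count in vehicle and 10.4 in (R)-9b, an odds ratio of 6.43 (2.43 to 19.2), which transcript counts reversed to 0.714 (0.127 to 3.46). The pair summed to 65 and 80 counts, a log2 ratio of 0.54 (0.05 to 1.03), whose interval included 0 with totals (-0.01 to 0.97), halved counts (-0.17 to 1.25) or 0.1 added (-0.09 to 1.17).

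The transcript table did not bear out the higher UGT2B28. It gave UGT2B11 17.1 estimated counts in vehicle and 8 in (R)-9b, a log2 ratio of -0.84 (-2.26 to 0.45). UGT2B28 had 11.8 estimated counts in vehicle and 3.73 in (R)-9b, the opposite direction to its gene counts, with a log2 ratio of -1.34 (-3.43 to 0.39). Summed, the pair had a log2 ratio of -1.02 (-2.13 to -0.0098), opposite to its gene counts. The UGT2B28 estimates came from 1 of its 2 annotated transcripts, the shorter one of 1525 bases. The longer coding transcript, of 1833 bases, was not among the rows used here, and the same held for the longest coding transcripts of UGT2B10 and UGT2B7. Whether these absences bear on the estimates was not tested. The direction of UGT2B28 thus rests on the gene counts.

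UGT2B10 had 12 counts with vehicle against 20 after (R)-9b, a log2 ratio of 0.97 whose interval (-0.13 to 2.14) includes 0. The liver-type members UGT2B4 and UGT2B7 were at the limit of detection. UGT2B4 had 4 counts with vehicle against 0 after (R)-9b, and UGT2B7 had 0 counts with vehicle against 4 after (R)-9b. A count of 0 allows up to 3 counts, which is 0.0451 CPM for vehicle and 0.0531 for (R)-9b, so no ratio is given for either gene.

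**Figure D1:**
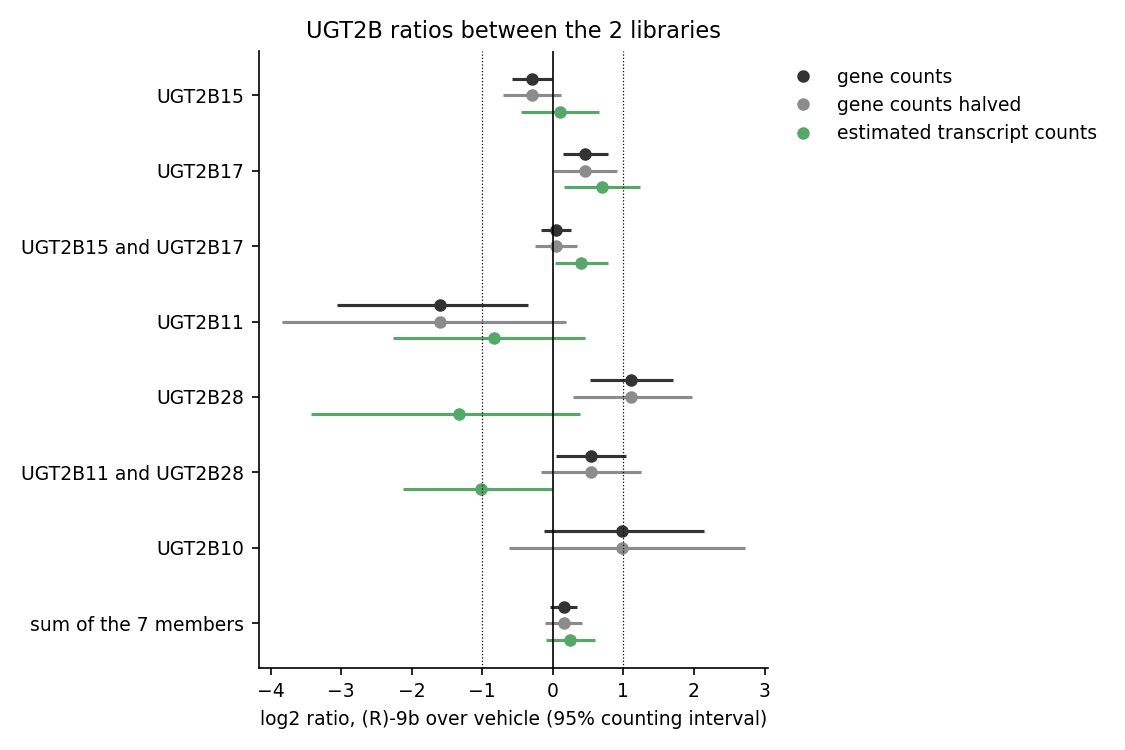
Log2 ratio of (R)-9b over vehicle (x axis) for each compared UGT2B gene, the 2 close pairs and the sum of the 7 members, with 95% counting intervals as lines, from gene counts, halved gene counts and estimated transcript counts; the solid line marks 0 and the dotted lines 2-fold. In gene counts UGT2B15 and UGT2B17 lie on either side of 0 and their sum at 0.05. The transcript counts place these 2 genes at 0.099 and 0.69 and their sum at 0.40. They place UGT2B28 at -1.34 against 1.11 for gene counts.

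Per length, the order of the members was led by UGT2B15 in vehicle and was shared by UGT2B15 and UGT2B17 in (R)-9b. In CPM per kilobase of exon, UGT2B15 was at 1.82 in vehicle (exact Poisson 95% interval 1.60 to 2.05) and UGT2B17 at 1.14 (0.965 to 1.33). In the (R)-9b library UGT2B17 was at 1.56 (1.34 to 1.80) and UGT2B15 at 1.48 (1.27 to 1.72), which overlap. UGT2B28 came next in both, at 0.328 (0.234 to 0.446) and 0.705 (0.553 to 0.887). Its interval in vehicle touched that of UGT2B11 (0.104 to 0.237), and in (R)-9b it stood apart from both neighbours. This place of UGT2B28 rests on gene counts. Its estimated transcript counts, without its longer coding transcript, were below those of UGT2B11 in both libraries. They were 11.8 against 17.1 in vehicle and 3.73 against 8 in (R)-9b. UGT2B11 at 0.160 and UGT2B10 at 0.0933 overlapped in vehicle. In (R)-9b their order was turned, with UGT2B10 at 0.183 (0.112 to 0.283) and UGT2B11 at 0.0530 (0.0213 to 0.109). That order rests on 20 and 7 gene counts. Estimated transcript counts in (R)-9b gave the opposite order, 3.72 for UGT2B10, without its longest coding transcript, and 8 for UGT2B11. Even UGT2B15 lay above no more than 37.3% (vehicle) and 34.8% ((R)-9b) of the 14780 protein-coding genes compared per length.

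**Figure D2:**
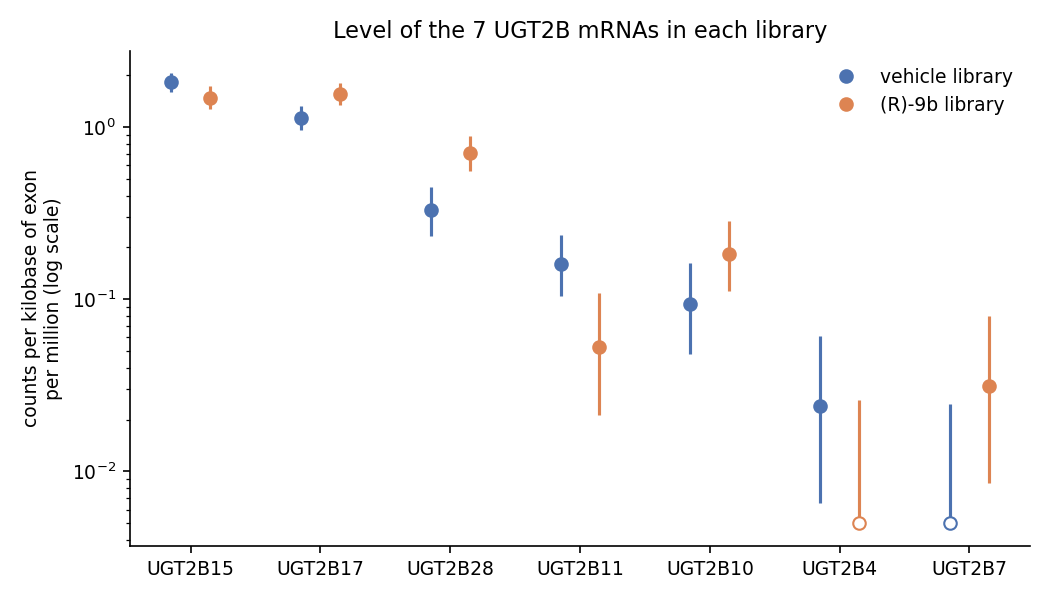
Level of each UGT2B mRNA per length (y axis, log scale, CPM per kilobase of exon) in the vehicle and (R)-9b libraries, with exact Poisson 95% intervals as lines; open circles at the lower edge are counts of 0. UGT2B15 and UGT2B17 sit between 1.14 and 1.82, while UGT2B4 and UGT2B7 each have a library at 0.

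The make-up of the UGT2B counts shifted accordingly. UGT2B15 took 51.3% of the members' counts in vehicle (exact binomial 95% interval 46.8 to 55.8) and 37.7% in (R)-9b (33.3 to 42.3). UGT2B17 took 32.1% (28.0 to 36.5) and 39.7% (35.2 to 44.3). UGT2B28 took 8.18% (5.91 to 11.0) and 15.8% (12.6 to 19.5), and UGT2B11 took 5.11% (3.33 to 7.46) and 1.52% (0.613 to 3.10). The intervals of UGT2B15, UGT2B28 and UGT2B11 do not overlap between the libraries, whereas those of UGT2B17 do. They take each count as separate and were not computed for halved counts, which would widen them. The shares also depend on each other, and no like value over all genes was computed. These shares are of gene counts, and for UGT2B28 the transcript table gave the opposite direction (11.8 and 3.73 estimated counts).

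**Figure D3:**
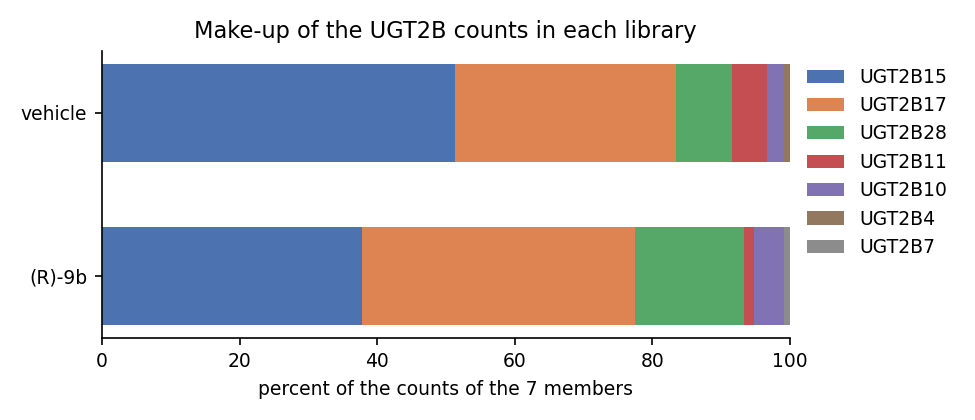
Percent of the summed counts of the 7 UGT2B genes (x axis) taken by each gene in the vehicle library (489 counts) and the (R)-9b library (461 counts). The share of UGT2B15 is 51.3% in vehicle and 37.7% in (R)-9b, and that of UGT2B28 is 8.18% and 15.8% in gene counts, while its estimated transcript counts, not plotted, were 11.8 and 3.73.

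Position in the cluster did not order the ratios of gene counts. In these counts the neighbours UGT2B17 and UGT2B15, and further on UGT2B11 and UGT2B28, differed in opposite directions. With halved counts the intervals of UGT2B15 and UGT2B11 included 0. Estimated transcript counts gave each pair a common direction, with log2 ratios of 0.69 and 0.099 for UGT2B17 and UGT2B15. For UGT2B11 and UGT2B28 they gave -0.84 and -1.34. Of these transcript ratios, all but that of UGT2B17 had intervals that include 0. Of the 38 other genes annotated between the outermost members, 29 had 0 counts in both libraries, and the remaining 9 summed to 22 counts in vehicle and 16 in (R)-9b.

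**Figure D4:**
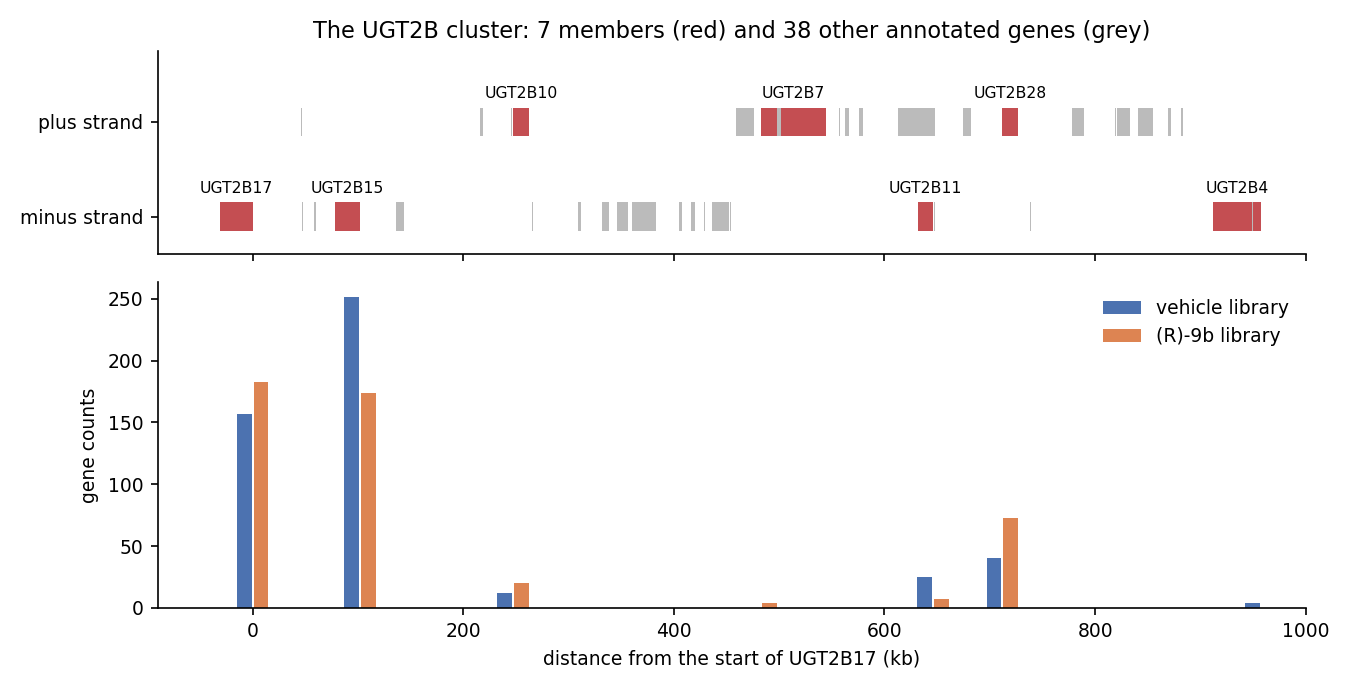
The UGT2B cluster on chromosome 4, drawn by distance from the start of UGT2B17 (x axis, kb), with the 7 members in red and 38 other annotated genes in grey on their strands (upper part) and the members' gene counts at their annotated starts in each library (lower part, bars from 0). Counts are concentrated in UGT2B17 and UGT2B15 at the left end, with 251 the highest value.

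Among the other UGT genes UGT8 alone had more than 6 counts in a library. Of 15 (the UGT1A, UGT2A and UGT3A genes and UGT8), 11 had 0 counts in both libraries and only UGT8, the ceramide galactosyltransferase, was compared, at 742 counts with vehicle against 437 after (R)-9b and a log2 ratio of -0.53 (-0.70 to -0.35). UGT1A isoforms share most of their exons, so reads can be ambiguous between them and be left out of unique counts. UGT3A1 had 0 and 6 counts, UGT3A2 had 0 and 2, and UGT1A10 had 2 and 0.

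Genes that supply UDP-glucuronic acid and handle glucuronides were split in direction. Of 17 in this list 15 were compared, and the whole interval was beyond 2-fold for 0, above 1 for 8 and below 1 for 5, with a median log2 ratio of 0.34. Over all genes the shares were 4.2% higher and 3.44% lower beyond 2-fold, and 29.8% above and 31.1% below 1, and the same shares apply to the lists that follow. UGDH, which oxidises UDP-glucose to UDP-glucuronic acid, had 3116 counts with vehicle against 2163 after (R)-9b, a log2 ratio of -0.29 (-0.37 to -0.21). UGP2, which makes UDP-glucose, was also lower, at -0.38 (-0.47 to -0.29). UXS1, which consumes UDP-glucuronic acid, was higher, at 0.54 (0.45 to 0.63). GUSB, the lysosomal enzyme that removes glucuronic acid, was lower, at -0.39, and the export pump ABCC1 was higher, at 0.73. SULT2B1, a steroid sulfotransferase, had the lowest ratio, at -1.16, with an interval that reached inside 2-fold.

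In the list of androgen synthesis and reduction, 16 of 23 genes were compared, 2 were beyond 2-fold higher and 0 lower, and the median was 0.18. Both were aldo-keto reductases that inactivate dihydrotestosterone and yield androstanediols, substrates of UGT2B15 and UGT2B17. AKR1C1 had 26 counts with vehicle against 216 after (R)-9b, a log2 ratio of 3.29 (2.70 to 3.94). AKR1C2 had 54 counts with vehicle against 252 after (R)-9b, a log2 ratio of 2.46 (2.03 to 2.91). These genes are close copies, so the division of reads between them is uncertain. Of the genes compared, the whole interval was above 1 for 7 and below 1 for 4, and it included 1 for 5. SRD5A1, which makes dihydrotestosterone, was lower, at -0.36 (-0.45 to -0.27), while SRD5A3 was at -0.06 (-0.14 to 0.03). Higher on few counts were AKR1C3 (18 and 43 counts), at 1.49 (0.67 to 2.38), and HSD3B1 (19 and 36), at 1.16 (0.32 to 2.04).

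Androgen-response genes outside the UGT2B family were split by list. Of 15 androgen-induced genes compared, 14 had intervals above 1 and 7 lay beyond 2-fold, with a median of 1.03, and KLK3, which encodes prostate-specific antigen, had a log2 ratio of 1.26. Of 5 androgen-repressed genes outside the family, 2 had intervals above 1, 2 lay beyond 2-fold lower and 1 included 1, with a median of 0.28. The 2 lower genes, named after their values were seen, were OPRK1 (46 counts in vehicle and 2 in (R)-9b) and AMIGO2 (43 and 8). The 2 above 1 were BCHE (63 and 113), at 1.08 (0.62 to 1.55), and CAMK2N1 (288 and 297), at 0.28 (0.04 to 0.52). MET (69 and 72) included 1. Of the 5 UGT2B genes compared, 2 were higher and 2 lower, so neither direction held for the family in gene counts. With halved counts the intervals of the 2 lower UGT2B genes included 1, and those of the 2 higher UGT2B genes did not.

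Regulators of UGT2B transcription differed widely. Of 19, 15 were compared, 0 were beyond 2-fold higher and 3 lower, and the median was -0.19. FOXA1 had 28235 counts with vehicle against 21524 after (R)-9b, a log2 ratio of -0.15 (-0.18 to -0.13). HNF4A, the hepatocyte nuclear factor that drives UGT2B genes in liver, had 146 counts with vehicle against 1 after (R)-9b, a log2 ratio of -6.95 with a wide interval (-12.27 to -4.45). JUN, of AP-1, was lower at -1.75 (-1.82 to -1.68), and CEBPB at -1.72 (-1.78 to -1.65). Intervals were above 1 for 4 regulators and below 1 for 7. Those above 1, named after their values were seen, were FOS, also of AP-1, at 0.87 (0.65 to 1.09), CEBPA at 0.62 (0.51 to 0.74), VDR at 0.31 (0.23 to 0.38) and NR1I3 at 2.18 (0.84 to 3.76) on 6 and 23 counts. Of the 7 hepatocyte markers, HNF4A and SERPINA1 (55 and 2 counts, log2 ratio -4.54) lay beyond 2-fold lower, while APOA1 had 94 and 99 counts. The other 4, ALB, APOB, CYP3A4 and FGB, had 0 to 4 counts in each library. The part of these genes in the UGT2B values was not tested.

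**Figure D5:**
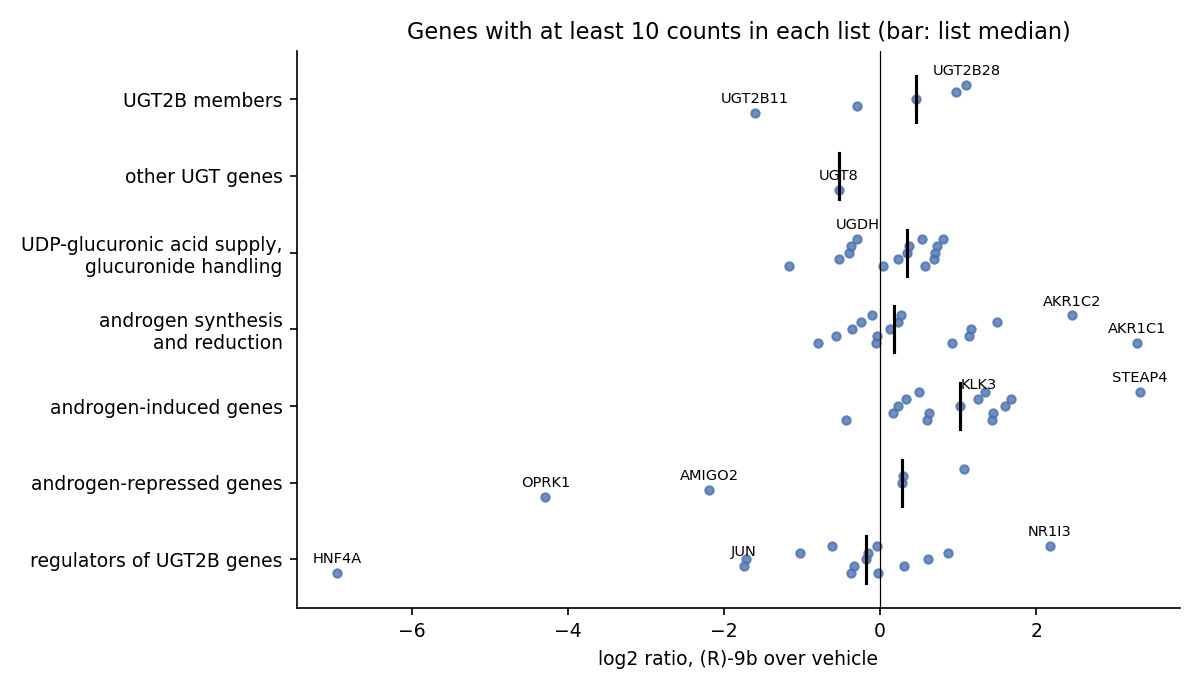
Log2 ratio of (R)-9b over vehicle (x axis) of each gene with at least 10 counts, by list, with the list median as a black bar and some genes named. The UGT2B members spread from -1.60 to 1.11 around a median of 0.46, the androgen-induced genes have a median of 1.03, and HNF4A lies at -6.95.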

How the data were processed

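RNA sequencing of 2 C4-2B libraries, vehicle and (R)-9b, was analysed, grouped by the treatment label. The authors aligned paired reads to the human genome with STAR and deposited gene counts of uniquely aligned, unambiguous reads. The submitters' processing notes list hg38, STAR 2.5.1a, featureCounts 1.4.6-p5 and Salmon 0.8.2, while the methods of the paper name another STAR version. The authors also deposited gene CPM, moderated log2 CPM (the moderation is not given in the sources used here) and estimated counts and CPM per transcript. A transcript table of moderated log2 CPM was not used.

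From the counts, 200 repeated lines were dropped and library sizes were scaled by TMM (edgeR 4.0.16, R 4.3.3). Exact 95% intervals of each ratio were computed for genes with at least 10 counts with scipy 1.17.1, numpy 2.4.6, pandas 2.3.3 and Python 3.11.15, and tested on simulated data. No p-value was computed, because each condition had 1 library. Exon lengths, coordinates and transcript sequences came from GENCODE 29 (GRCh38), and coding sequences were aligned with Biopython 1.88. Pairs were chosen by coding identity, since no protein table was used here. Figures were drawn with matplotlib 3.10.9.

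The 7 members, the gene lists and the motifs were chosen with earlier results of these data known. Genes named are the members, UGT and pseudogenes with counts, list genes with at least 100 counts beyond 2-fold, some list genes of known role chosen after their values were seen, and FOXA1, UGDH and KLK3. Estimated counts were rounded for intervals. Alternatives were scaling by totals, DESeq2 1.42.0 size factors, upper quartile or TMM without mitochondrial genes, the other deposited units, halved counts, minimum counts of 1 and 50, a point ratio or an interval beyond 1, and an added coefficient of variation of 0.1 or 0.4, which are assumed and not measured. PCR copies could not be told apart. 1 gene of the lists is not reported here.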

Additional observations from a re-analysis of the deposited data

Results flagged for a closer look

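The transcript table lists a copy of UGT2B15 at an alternate locus (ENSG00000277132) that has no row in the gene table used for the comparisons. It had 28.97 estimated counts in vehicle and 13.5 in (R)-9b, above the 3 counts that a count of 0 allows, beside 61.0 and 55.3 for the transcript of UGT2B15 itself. Reads given to this copy are outside the transcript values of UGT2B15 unless they are added.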

How the results depend on the processing

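No paired analysis was possible because each condition had 1 library. UGT2B10 kept an interval that includes 0 wherever one was computed (0.88 to 1.01 on the log2 scale over 10 alternatives). For UGT2B15 the interval included 0 at -0.25 with the upper quartile, at -0.29 with halved counts or an added coefficient of variation of 0.1 or 0.4, and at -0.13 with estimated transcript counts and the alternate locus, while without that locus the value reversed to 0.099. UGT2B11 stayed below 0, but its interval included 0 with halved counts and with 0.4 added (-1.60) and with transcript counts (-0.84). UGT2B17 stayed at 0.46 with an interval including 0 once 0.1 or 0.4 was added, and UGT2B28 at 1.11 once 0.4 was added. Transcript counts reversed UGT2B28 to -1.34 and its pair with UGT2B11 to -1.02, in a table that holds 1 of the 2 UGT2B28 transcripts. That pair, at 0.54, also had an interval including 0 with halved counts or an added 0.1 or 0.4, and at 0.48 with totals. The interval of the sum of the 7 members lay above 0 only with the upper quartile (0.19), and that of UGT2B15 and UGT2B17 only with transcript counts (0.40). The odds ratio of UGT2B15 over UGT2B17 was 0.665 with transcript counts and 0.595 with 0.4 added, both with intervals that include 1, and that of UGT2B28 over UGT2B11 was 0.714 with transcript counts, which reversed it. The number of members beyond 2-fold was 0, and it was 2 by point ratio and 4 with an interval beyond 1. The cause of these changes was not tested. The alternate locus, halving together with an added 0.1 and the odds ratios were chosen after seeing the data. Depth limits UGT2B4 and UGT2B7, for which no ratio could be given, and UGT2B10 and UGT2B11, whose 32 counts each leave intervals of over 2 log2 units.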

Other observations

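TMPRSS11E, a membrane serine protease of epithelia, lies before the UGT2B cluster, with the pseudogene UGT2B29P between them. TMPRSS11E had 30 counts in vehicle and 89 in (R)-9b, given here as counts only. SULT1B1, a sulfotransferase beyond the other end of the cluster, had 0 and 2. Among markers of other cell types, 4 of 7 immune markers had 0 counts in both libraries and the list reached 0.285 CPM for vehicle and 0.584 for (R)-9b. The 7 hepatocyte markers summed to 4.58 and 1.9 CPM, of which HNF4A made up 2.19 and 0.018. The 7 stromal and endothelial markers summed to 31.2 and 46.7 CPM, led by COL1A1 with 1114 and 2004 counts, VWF with 769 and 411 and PDGFRB with 181 and 205, while PECAM1, LUM, COL1A2 and DCN had 0 to 14 counts in each library.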
